A study of Mus musculus with 23 samples.

Results

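The transcripts described here belong to 34 genes of homologous recombination and the Fanconi anemia pathway, together with the kinases that signal DNA damage to them and 1 mismatch recognition gene. The members were a list of gene names, and each was measured by the non-control array probes whose RefSeq transcript belongs to it. Probes were found for 33 of the 34 members, among 20145 named genes and 55681 non-control probes on the array. Rad51c had no matched probe and has no value. The 33 genes had 44 probes, and 10 of them had more than 1 probe. Where a gene had several probes, the one with the highest mean level stands for it. Other tested probes are named where they differed from it in call against DMSO, and some others that differed in sign are given too.

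The cells were TM4, a permanent line of mouse Sertoli cells, the supporting cells of the testis. They received DOM, DOS, DINCH, MEHP or BDB at 100 μM in 1% DMSO, or the vehicle alone, for 48 h. MEHP is the monoester metabolite of the phthalate plasticizer DEHP, DINCH is a cyclohexane dicarboxylate in commercial use, and BDB is butanediol dibenzoate. DOM and DOS are dioctyl maleate and dioctyl succinate, diesters of the same alcohol that differ in the acid core, where the maleate has a carbon-carbon double bond that the succinate lacks. Each culture was measured on its own 1-colour Agilent array, 3 for DOS and 4 for each of the other 5 groups, spread over 3 slides. All 6 groups shared the cell line, the vehicle and the time. DOM and DOS arrays lay in the slide rows that DMSO used. The arrays of MEHP, DINCH and BDB lay in other rows. For these 3 compounds the row and the comparison with DMSO, DOM or DOS cannot be told apart.

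Homologous recombination repairs breaks through both DNA strands by copying an undamaged sister chromatid, and cells use it mainly in S and G2 phase. The broken end is first resected to single-stranded DNA, and the BRCA1, PALB2 and BRCA2 complexes then prepare it for pairing with the intact copy. The Fanconi anemia pathway deals with crosslinks between the DNA strands: a core complex ubiquitinates the FANCD2 and FANCI pair, and the repair then passes to nucleases and recombination. Transcription of many of these genes is known to rise when cells divide.

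A level here is log2 of the background-subtracted spot intensity minus the log2 of the array's 75th percentile, so that 0 is the 75th percentile of that array and a difference of 1 is a 2-fold difference. Between 43.4% and 52.2% of an array's spots were well above background, and no spot was saturated. Precision is set by the number of arrays, since arrays carry no counts. A gene was called when the adjusted p of limma was below 0.05 and the difference exceeded 1.5-fold. On 8 of the 23 arrays, DOM replicates 3 and 4 and DMSO replicate 4 among them, at least 1 measure of the extraction report was out of range. Of 18 Sertoli cell markers, 8 were well above background on all 23 arrays, Gata4, Inha and Inhbb among them, and Wt1, Gata1, Fshr and Cldn11 were above it on none. Cyp17a1 of 6 Leydig cell markers, Csf1r of 4 macrophage markers and Acta2, Cnn1 and Tagln of 5 peritubular myoid markers were also above background on all 23 arrays. None of the 6 germ cell markers were.

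Promoter sequences were held for 26 of the 34 members in a RefSeq table of the mouse genome build GRCm38.p6, each from 250 bases before to 50 bases after the start of the gene. The 250 bases before the start are shown for the 6 members in that table whose levels fell most with DOM, with every DOM array below every DMSO array. They are written 5′ to 3′ on the strand of the gene. Capitals mark matches on either strand to the letters TTTNNCGC (an E2F motif), TTTGAA (a cell cycle homology region, CHR) and CCAAT (the NF-Y motif).
Rad51ap1 (chr6:126939588-126939837, minus strand): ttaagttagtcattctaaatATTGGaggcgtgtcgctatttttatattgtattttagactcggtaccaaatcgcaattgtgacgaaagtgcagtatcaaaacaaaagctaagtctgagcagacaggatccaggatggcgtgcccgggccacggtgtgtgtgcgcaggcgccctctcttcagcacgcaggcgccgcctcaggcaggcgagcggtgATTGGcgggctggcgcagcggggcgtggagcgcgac
Fanca (chr8:123318577-123318826, minus strand): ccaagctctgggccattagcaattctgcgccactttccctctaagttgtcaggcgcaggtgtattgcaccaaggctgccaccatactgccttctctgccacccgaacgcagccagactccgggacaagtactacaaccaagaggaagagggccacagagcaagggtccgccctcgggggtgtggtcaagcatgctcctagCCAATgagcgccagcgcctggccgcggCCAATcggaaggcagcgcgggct
Bard1 (chr1:71102973-71103222, minus strand): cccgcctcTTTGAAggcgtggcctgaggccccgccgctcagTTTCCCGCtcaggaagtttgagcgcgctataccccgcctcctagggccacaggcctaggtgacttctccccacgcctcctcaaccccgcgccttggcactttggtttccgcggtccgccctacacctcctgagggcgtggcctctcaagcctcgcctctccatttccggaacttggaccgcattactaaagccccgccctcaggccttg
Brip1 (chr11:86201194-86201443, minus strand): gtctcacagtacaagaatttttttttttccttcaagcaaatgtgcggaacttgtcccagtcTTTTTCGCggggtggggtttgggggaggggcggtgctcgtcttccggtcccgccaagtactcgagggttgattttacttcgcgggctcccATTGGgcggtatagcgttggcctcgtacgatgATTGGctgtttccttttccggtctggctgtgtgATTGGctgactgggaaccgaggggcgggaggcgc
Fancb (chrX:164980342-164980591, plus strand): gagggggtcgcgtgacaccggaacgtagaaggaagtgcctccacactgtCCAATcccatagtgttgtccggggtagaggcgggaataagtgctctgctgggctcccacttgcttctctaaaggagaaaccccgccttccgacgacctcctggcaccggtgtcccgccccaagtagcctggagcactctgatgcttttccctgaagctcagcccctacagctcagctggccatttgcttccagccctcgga
Fanci (chr7:79392088-79392337, plus strand): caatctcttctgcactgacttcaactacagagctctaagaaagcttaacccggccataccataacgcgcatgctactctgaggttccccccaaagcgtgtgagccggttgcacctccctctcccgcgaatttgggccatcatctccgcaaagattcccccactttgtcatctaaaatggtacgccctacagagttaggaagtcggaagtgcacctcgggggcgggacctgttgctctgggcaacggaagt
Rad51ap1 held 2 CCAAT motifs, both read on the opposite strand, the nearer starting at position -36 from the start of the gene. In Fanca, 2 CCAAT motifs on the strand of the gene began at -50 and -23. Bard1 had the E2F letters at -209 and again at 39, which lies past the stretch shown, and TTTGAA at -242. Brip1 combined the E2F letters at -189 with 3 CCAAT motifs, and Fancb had 1 CCAAT at -201. No searched motif was found in the window of Fanci. Over all members with a window, TTTNNCGC was present in 7 of 26 genes (26.9%) and in 5.93% of all 27025 genes of the table, and CCAAT in 18 of 26 (69.2%) and in 41.1% of all genes. TTTGAA was found in 2 of the 26 (20.2% of all genes), its variant TTCGAA in 1 (1.80%), and TGACNNNGC, the core of the antioxidant response element, in 5 (14.0%). CCAAT occurred in 8 of the 11 members with a window whose levels fell with DOM and in 9 of the 11 that were tested and did not, and TTTNNCGC occurred in 3 and 2 of them. These counts are descriptions of letters in a window and carry no test.

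With DOM, 16 of the 30 members tested were called, 15 lower and 1 higher. Of all 12005 genes tested with DOM, 20.5% were called in either direction and 10.6% were called lower. The median log2 difference from DMSO was -0.55 over the 30 members and -0.03 over all genes, and 25 of the 30 members lay below 0. The called decreases fell on 4 of 6 resection genes, 1 of 3 BRCA mediators, 3 of 3 strand exchange genes (Rad51ap1, Rad54b and Rad54l), 3 of 7 Fanconi core genes, 3 of 3 genes of the ID pair with its helicase, and 1 of 3 checkpoint kinases. None of Rad51b, Rad51d, Xrcc2 and Xrcc3 was called lower on its brightest probe. There were 13 members with all 4 DOM arrays below all 19 other arrays. The share of all genes with DOM arrays apart in this way was not computed. The cultures are bulk samples, in which fewer cells of a kind and less RNA per cell cannot be told apart.

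**Figure D1:**
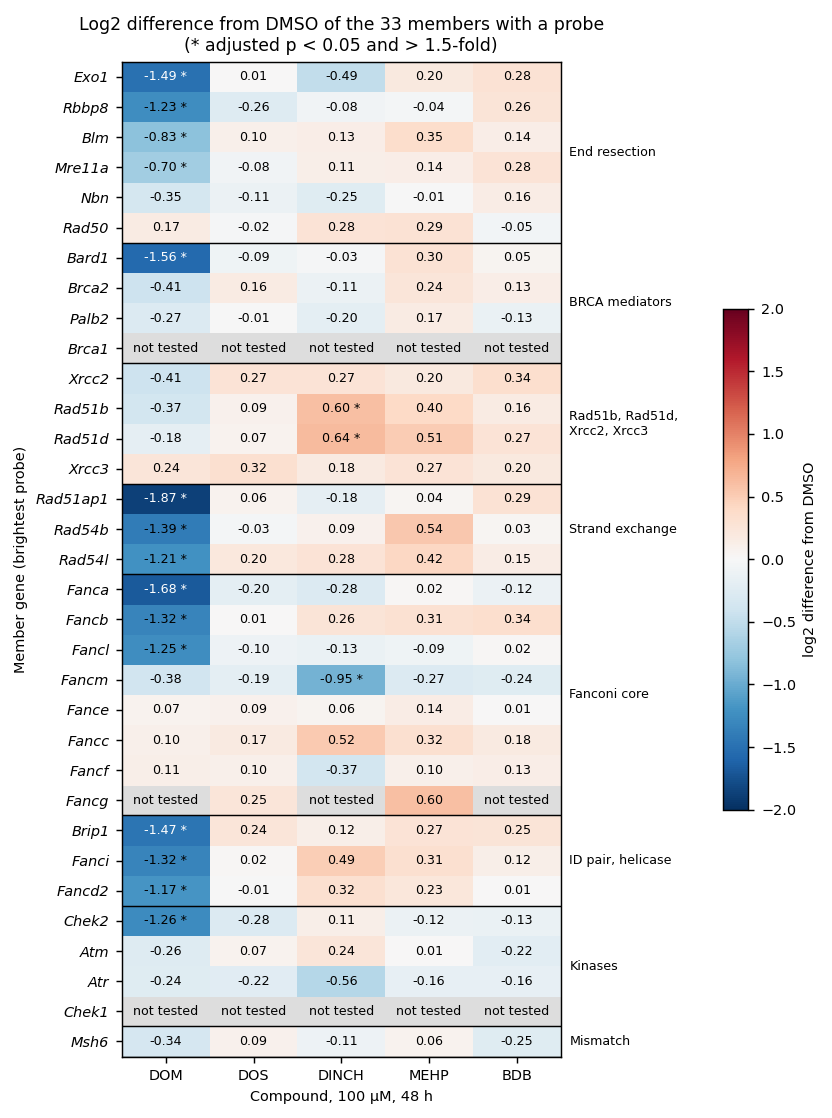
Log2 difference from DMSO (colour and printed value) of the 33 members with a probe, by role (rows) and compound (columns), each on the gene's brightest probe. Asterisks mark differences with an adjusted p below 0.05 and above 1.5-fold, and grey cells were not tested. The called decreases lie in the DOM column, from -0.70 for Mre11a to -1.87 for Rad51ap1, apart from Fancm with DINCH at -0.95.

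Among the resection genes, Exo1, a nuclease that digests the broken end, had levels of 2.14, 1.73, 2.12 and 1.83 on the 4 DMSO arrays and 0.65, 0.16, 1.09 and -0.05 on the 4 DOM arrays. The groups did not overlap, and the level fell by 2.82-fold, a log2 difference of -1.49 (SE 0.24, adjusted p = 0.0019). Rbbp8 encodes CtIP, which starts resection together with the MRE11 complex. It stood at 2.82, 2.32, 2.46 and 2.45 with DMSO and at 1.31, 1.30, 1.38 and 1.13 with DOM, a log2 difference of -1.23 (SE 0.12, adjusted p = 0.000331) with a spread between the DOM arrays of 0.11 (SD, n = 4). The helicase Blm, which unwinds DNA for resection and takes recombination intermediates apart, fell by 0.83 on the log2 scale (SE 0.11, adjusted p = 0.000955), and its DOM arrays, 0.01 to 0.34, lay below its DMSO arrays, 0.91 to 1.20. Mre11a, the nuclease of the MRE11, RAD50 and NBN complex, was called at -0.70 (SE 0.23, adjusted p = 0.043), with 1 DOM array at 2.54 inside the DMSO range of 2.52 to 3.11. Its call was lost in 9 of 20 other settings, among them without DMSO replicate 1, 2 or 3 or DOM replicate 2 or 4, where the log2 difference ran from -0.73 to -0.52. The other parts of that complex were not called. Nbn differed by -0.35 (adjusted p = 0.052) and Rad50 by 0.17 (adjusted p = 0.33), with overlapping groups for both. The second Rad50 probe differed by -0.09 (adjusted p = 0.65).

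Bard1, the partner of BRCA1 in its ubiquitin ligase, was the mediator that fell. Its levels were 1.25, 0.45, 0.79 and 0.55 with DMSO and -0.48, -0.86, -0.53 and -1.33 with DOM, a 2.94-fold decrease and a log2 difference of -1.56 (SE 0.23, adjusted p = 0.0014). A second Bard1 probe differed by -1.68 and was called, although only 2 of its 4 DOM arrays were well above background, and the other one differed by -0.59 (adjusted p = 0.080) and was not. All 3 probes were lower on every DOM array than on any DMSO array. Brca2, a central mediator of recombination, differed by -0.41 (SE 0.15, adjusted p = 0.067) and Palb2, which links BRCA1 to BRCA2, by -0.27 (SE 0.18, adjusted p = 0.28), and neither was called. Brca1 itself was too dim to test: its probe was well above background on 2 of 4 DMSO arrays and on 0 of 4 DOM arrays.

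The strand exchange genes held the member with the largest decrease. Rad51ap1 encodes a DNA-binding protein that stimulates the pairing of strands. On the DMSO arrays it stood at 3.23, 2.74, 2.86 and 2.96 and on the DOM arrays at 1.34, 0.94, 1.45 and 0.58, which is 3.66-fold lower (log2 difference -1.87, SE 0.20, adjusted p = 0.000383). Rad54b and Rad54l encode motor proteins that remodel DNA during the strand search. Rad54b levels were -0.54, -1.26, -0.89 and -0.83 with DMSO and -2.03, -2.32, -2.16 and -2.58 with DOM (-1.39, SE 0.17, adjusted p = 0.000678). For Rad54l the DMSO arrays gave 0.69, 0.58, 0.55 and 0.30 and the DOM arrays -0.25, -0.77, -0.43 and -1.25 (-1.21, SE 0.21, adjusted p = 0.0027). In all 3 genes the DOM arrays lay apart from the DMSO arrays.

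The genes Rad51b, Rad51d, Xrcc2 and Xrcc3, whose products work together early in recombination, were not called lower. Rad51b differed by -0.37 (SE 0.11, adjusted p = 0.032) and its DOM arrays, -1.17 to -0.82, lay below its DMSO arrays, -0.76 to -0.57, but the difference was under 1.5-fold. Xrcc2 differed by -0.41 (adjusted p = 0.060), Xrcc3 by 0.24 (adjusted p = 0.11) and Rad51d, on its brighter probe, by -0.18 (adjusted p = 0.27). The dimmer Xrcc2 probe, not called either, stood at -2.99 to -2.55 with DMSO and at -4.23 to -2.98 with DOM. It was not well above background on DOM replicates 2 and 4. Xrcc2 was called with DOM when all groups were in 1 fit and without DOM replicate 1 or 3. Rad51d counts as the member that was called higher because of its second, dimmer probe, which gave -2.68, -2.45, -2.46 and -2.72 with DMSO and -1.83, -2.31, -2.14 and -1.68 with DOM, a log2 difference of 0.59 (adjusted p = 0.017), just over 1.5-fold. The 2 probes of Rad51d thus disagreed in sign, and the direction of this gene with DOM is not settled here. The call on the dimmer probe was lost in 7 other settings, with adjusted p up to 0.15, and with only the brightest probe of each gene Rad51d was not called.

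**Figure D2:**
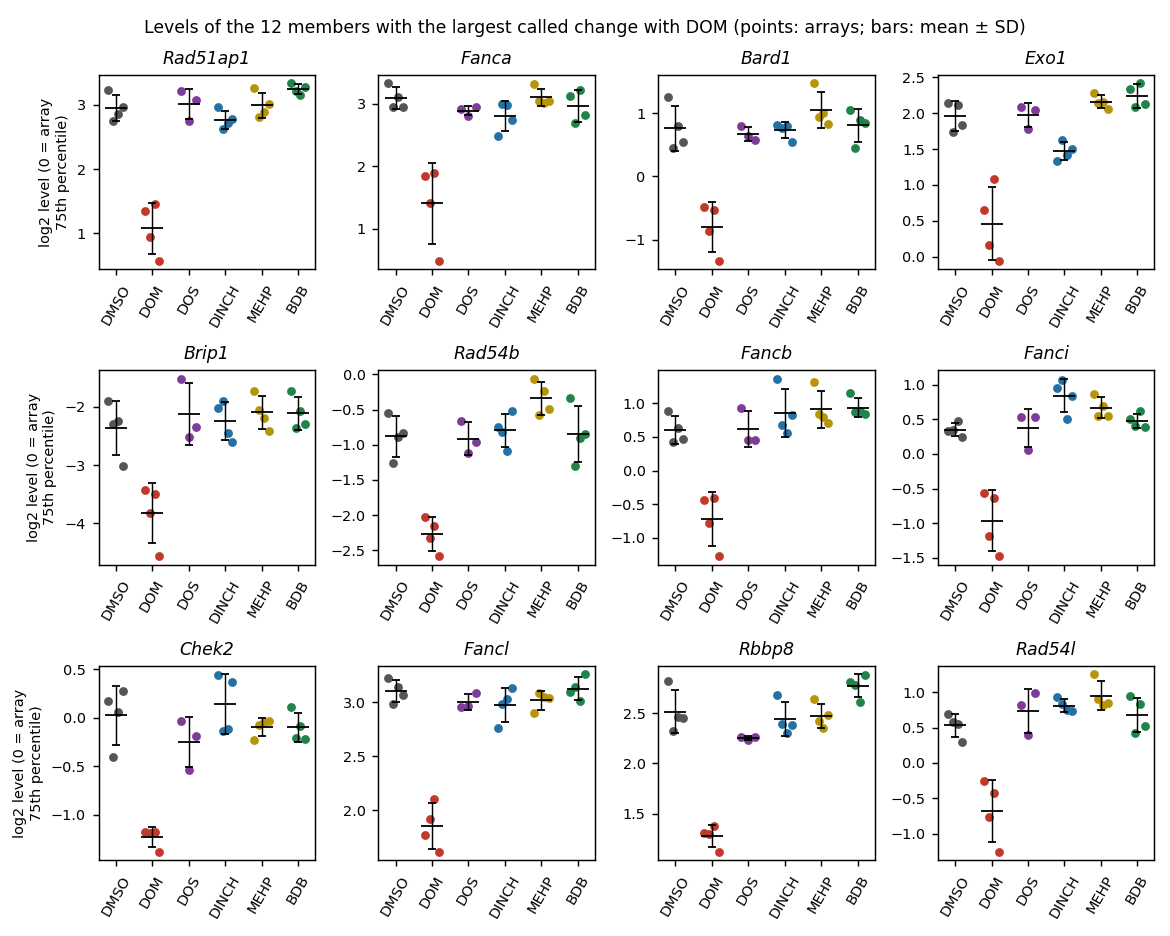
Log2 level relative to the array's 75th percentile (vertical axes) of the 12 members with the largest called change with DOM, for the arrays of each group (points) with the mean ± SD (bars; n = 4, and 3 for DOS). In each panel the 4 DOM arrays lie below all other arrays, for Rad51ap1 between 0.58 and 1.45 against 2.62 or more elsewhere.

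In the Fanconi core complex, Fanca, Fancb and Fancl fell. Fanca, one of its largest subunits, had levels of 3.33, 2.96, 3.11 and 2.95 with DMSO and 1.84, 1.42, 1.89 and 0.49 with DOM, a decrease of log2 -1.68 (SE 0.28, adjusted p = 0.0025). Its DOM arrays spread more (SD 0.65) than its DMSO arrays (SD 0.18), and DOM replicate 4 was the lowest. Fancb, which builds the catalytic module with FANCL, stood at 0.88, 0.42, 0.63 and 0.46 with DMSO and at -0.44, -0.78, -0.41 and -1.27 with DOM (-1.32, SE 0.20, adjusted p = 0.0015). Fancl, the ubiquitin ligase itself, gave 3.22, 2.98, 3.14 and 3.07 with DMSO and 1.77, 1.92, 2.11 and 1.62 with DOM (-1.25, SE 0.12, adjusted p = 0.000298), and its second probe was also called at -1.09. The remaining core genes did not pass. Fancm, which anchors the complex to DNA, differed by -0.38 (adjusted p = 0.16), Fance by 0.07, Fancc by 0.10 and Fancf by 0.11, with adjusted p of at least 0.52 for these last 3. Fancg was well above background on 3 of 4 arrays in both groups and was not tested with DOM.

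Downstream of the core complex, the paired substrates Fanci and Fancd2 and the helicase Brip1 (FANCJ) were all called lower. Fanci levels were 0.34, 0.35, 0.47 and 0.25 with DMSO and -0.56, -1.19, -0.63 and -1.48 with DOM (-1.32, SE 0.20, adjusted p = 0.0016). Brip1 stood at -1.91, -2.30, -2.25 and -3.01 with DMSO and at -3.43, -3.82, -3.50 and -4.56 with DOM (-1.47, SE 0.29, adjusted p = 0.0054). Both genes had DOM arrays below every DMSO array, and Brip1 was the 1 tested member that was not above background on every DOM array, being so on 3 of 4. With normexp background correction its difference shrank to -0.56 and was under 1.5-fold. Fancd2 gave -0.89, -1.29, -0.90 and -0.82 with DMSO and -2.31, -1.16, -2.00 and -3.13 with DOM (-1.17, SE 0.35, adjusted p = 0.031). DOM replicate 2 lay within the DMSO range, and the Fancd2 call was lost in 8 of 20 other settings, among them without DMSO replicate 1, 3 or 4 or DOM replicate 1 or 3, with adjusted p from 0.050 to 0.069. Without the arrays whose extraction measures were out of range it was -0.71 (adjusted p = 0.19).

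Of the kinases, Chek2, which relays the signal of broken DNA to p53 and the cell cycle, fell with DOM. It was at 0.17, -0.41, 0.06 and 0.28 on the DMSO arrays and at -1.18, -1.19, -1.18 and -1.38 on the DOM arrays (-1.26, SE 0.15, adjusted p = 0.000597). Atm and Atr, which sense breaks and single-stranded DNA, differed by -0.26 (adjusted p = 0.25) and -0.24 (adjusted p = 0.17), with groups that overlapped. Chek1, the kinase below ATR, was well above background on 1 of 4 DMSO arrays and on 0 of 4 DOM arrays and was not tested. Msh6, which recognizes mismatched bases, was lower by less than 1.5-fold (-0.34, SE 0.11, adjusted p = 0.043).

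Within each slide the difference kept its direction. The median over the 30 members was -0.76 on slide 1, -0.51 on slide 2 and -0.95 on slide 3, with 26, 28 and 24 members below 0. Array by array, the median deviation of the members from the DMSO mean was -0.38, -0.59, -0.56 and -0.87 on the DOM arrays, and ran from -0.15 to 0.17 on the DMSO arrays. Without DOM replicates 3 and 4 and DMSO replicate 4, whose extraction measures were out of range, 13 members were called with DOM and the median was -0.41. That fit called 2198 of all 12185 genes tested.

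With DINCH, 3 of 30 members were called, where 8.26% of all 11913 genes tested were called. Fancm levels were -2.16, -2.71, -2.00 and -1.98 with DMSO and -3.24, -3.16, -3.18 and -3.09 with DINCH, a log2 difference of -0.95 (SE 0.16, adjusted p = 0.0092) between groups that did not overlap. Rad51b gave -0.62, -0.60, -0.57 and -0.76 with DMSO and 0.12, 0.14, -0.19 and -0.20 with DINCH, a rise of 0.60 (SE 0.11, adjusted p = 0.014). For Rad51d the brighter probe gave 0.57, 0.39, 0.33 and 0.53 with DMSO and 1.53, 0.85, 0.91 and 1.08 with DINCH, a rise of 0.64 (SE 0.15, adjusted p = 0.031), while its dimmer probe showed means of -2.58 and -2.51 and no call. A further 4 members passed the adjusted p and stayed under 1.5-fold: Atr at -0.56, Exo1 at -0.49, Fanci at 0.49 and Fancc at 0.52. The share of all genes that passed the adjusted p alone with DINCH was not computed. At an unadjusted p under 0.05 in limma, 10 of 30 members (33.3%) differed with DINCH, near the 30.8% of all genes. The second Fancc probe lay the other way with DINCH, with means of -3.92 for DMSO and -4.50 for DINCH, and was above background on too few arrays to be tested. The median over the members was 0.10, with 13 of 30 below 0. With normexp background correction none of the 3 calls remained (Fancm then -0.30), and without DINCH replicate 1 there was 1 call. Without the arrays whose extraction measures were out of range the differences were -0.84 for Fancm, 0.40 for Rad51b and 0.57 for Rad51d, in a fit that called 3 of all 12133 genes tested.

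**Figure D3:**
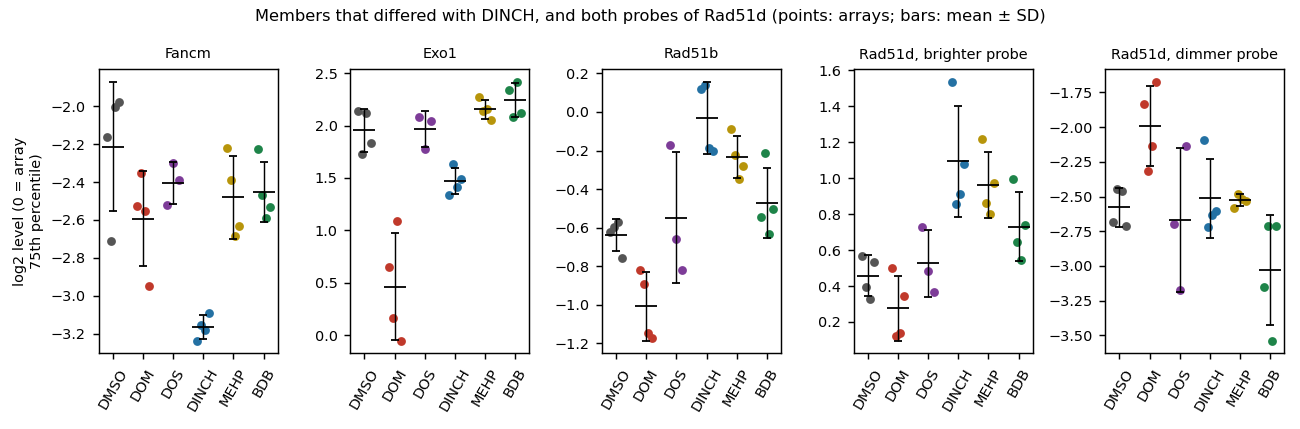
Log2 level relative to the array's 75th percentile (vertical axes) of Fancm, Exo1, Rad51b and both probes of Rad51d, for the arrays of each group (points) with the mean ± SD (bars; n = 4, and 3 for DOS). The DINCH arrays are lowest for Fancm, at -3.24 to -3.09, and the DOM arrays of Rad51d are higher than DMSO on its dimmer probe but not on its brighter one.

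With MEHP, BDB and DOS no member was called by limma. Among all genes tested, 1.68% were called with MEHP, 0% with BDB and 0% with DOS. At an unadjusted p under 0.05, 10 of 31 members differed with MEHP, 5 of 30 with BDB and 1 of 31 with DOS, where the shares over all genes were 18.9%, 16.3% and 6.34%. All 10 members below that unadjusted p with MEHP were higher, Rad51b (0.40, adjusted p = 0.052), Rad51d (0.51, adjusted p = 0.054) and Blm (0.35, adjusted p = 0.098) among them. The median over the members was 0.20 with MEHP, 0.13 with BDB and 0.02 with DOS. With DOS the differences of the 31 members ran from -0.28 (Chek2) to 0.32 (Xrcc3), and the 95% intervals of single members reached from -0.71 to 0.95, so changes of the size seen for Rad51ap1 with DOM lay outside all of them. The 5 comparisons share the 4 DMSO arrays and are not independent of each other.

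The compounds were then compared directly, all at 100 μM and 48 h, in 10 pairs with p-values adjusted over the 10 pairs together. Between DOM and DOS, which differ by the double bond of the core, 14 of 31 members were called and all 14 were lower with DOM, where 14.7% of all genes were called. Rad51ap1 differed by -1.94 (95% interval -2.44 to -1.43), Brip1 by -1.70 (-2.43 to -0.97), Exo1 by -1.50 (-2.09 to -0.92) and Fanca by -1.48 (-2.19 to -0.78). The level of Xrcc2, which was not called against DMSO, was lower with DOM than with DOS by a log2 difference of -0.68 (-1.03 to -0.33, adjusted p = 0.021). Fancd2 was not called in this pair (-1.17, -2.07 to -0.27, adjusted p = 0.084), nor was Mre11a (-0.62, -1.16 to -0.07, adjusted p = 0.12). For members with a difference near 0, such as Fance (-0.02, -0.32 to 0.28), Atr (-0.02, -0.26 to 0.23) and Fancf (0.01, -0.28 to 0.31), the interval bounds the difference at less than 1.5-fold, and for Fancg (-0.63 to 0.59) it does not. Without the filter on dim probes the count for this pair was 7, in a fit that called 525 of all 20145 genes.

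**Figure D4:**
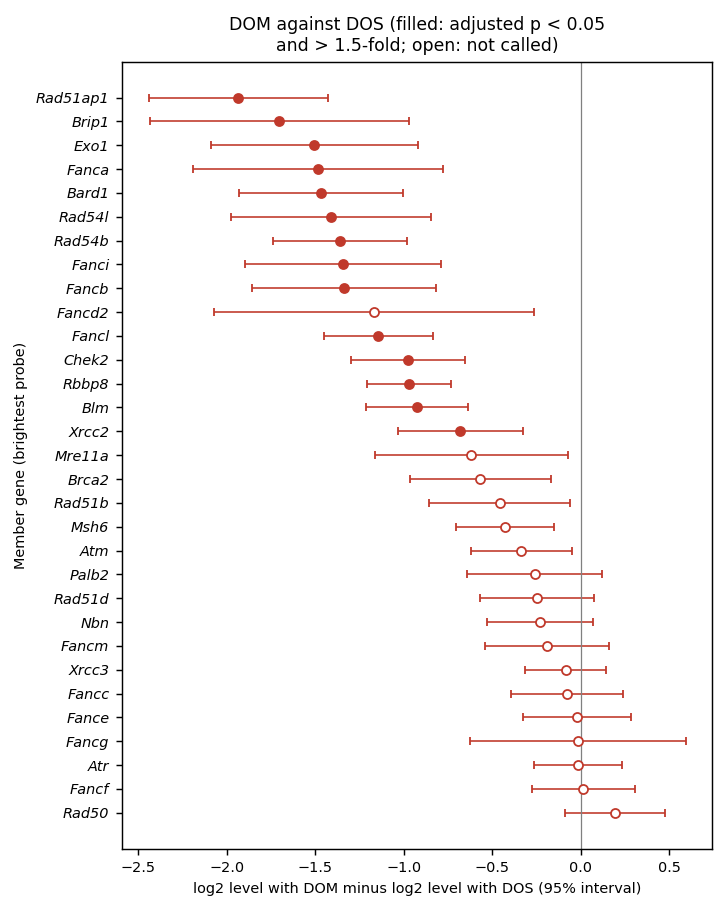
Log2 level with DOM minus log2 level with DOS (horizontal axis; n = 4 and 3 arrays) for the 31 members tested, each on its brightest probe, with 95% intervals (bars). Filled points were called after adjustment over the 10 pairs, and the 14 filled points run from -1.94 for Rad51ap1 to -0.68 for Xrcc2.

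DOM was also set against the other compounds. Against DINCH, 18 of 30 members were called, each lower with DOM on the probe that was called, where 22.2% of all genes were called. Against MEHP it was 19 of 31 in the same direction, with 18.6% of all genes, and Brca2 was among them (-0.65, -0.94 to -0.36, adjusted p = 0.011). Against BDB it was 17 of 30, 16 lower and Rad51d higher on its dimmer probe, with 26.1% of all genes. Rad51d counts among the members lower with DOM than with DINCH and MEHP on its brighter probe (-0.82 and -0.68), while its dimmer probe was higher by 0.52 (adjusted p = 0.082) and by 0.54 (adjusted p = 0.030, under 1.5-fold). The median difference over the members was -0.89 against DINCH, -0.77 against MEHP, -0.86 against BDB and -0.62 against DOS. These 4 pairs share the DOM arrays. In the pairs of DOM or DOS with DINCH, MEHP or BDB, the slide row and the compound cannot be told apart.

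Fancm and Exo1 differed between DINCH and some of the other compounds. Fancm was lower with DINCH than with MEHP (-0.68, -0.95 to -0.42), with BDB (-0.71, -0.95 to -0.48) and with DOS (-0.76, -1.01 to -0.52). It was higher with DOM than with DINCH by 0.57 (0.27 to 0.87, adjusted p = 0.019), just under 1.5-fold. With normexp background correction Fancm was not called between DINCH and MEHP, BDB or DOS. Exo1 was lower with DINCH than with MEHP (-0.69, -0.91 to -0.47) and BDB (-0.77, -1.02 to -0.52), and the other call of DINCH against BDB was Xrcc2 on its dimmer probe (-0.59, adjusted p = 0.034), whose brighter probe differed by -0.07. In all, 2 of 31 members were called between DINCH and MEHP (3.48% of all genes), 3 of 30 between DINCH and BDB (9.94%) and 1 of 31 between DINCH and DOS (5.90%). No member was called by limma between MEHP and BDB (3.22% of all genes), MEHP and DOS (1.44%) or BDB and DOS (2.25%). These shares depend on the adjustment over the 10 pairs together. With p-values adjusted within each pair, again no member was called, beside 309 of 11941, 23 of 11879 and 5 of 11929 genes. That adjustment called 360 of 11836 genes between DINCH and DOS, with Fancm again the 1 member. At an unadjusted p under 0.05, 8, 6 and 4 of 31 members differed between MEHP and BDB, MEHP and DOS, and BDB and DOS. The shares over all genes were 27.1%, 12.9% and 17.2%. With the replicate number as a block, 2 members were called between MEHP and DOS, Bard1 and Rad54b (2.62% of all genes in that fit), 1 between BDB and DOS, Rad54b (2.64%), and 2 between DINCH and DOS, Fancm and Rad51d (8.47%). For MEHP against BDB the 95% intervals of single members reached from -0.51 to 1.33, for MEHP against DOS from -0.55 to 0.94 and for BDB against DOS from -1.05 to 0.74.

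Other genes of DNA repair were taken from lists of the same kind. Of 40 further genes of recombination and crosslink repair tested with DOM, 11 were lower and 1 was called higher, Rmi1, on a probe other than its brightest. The meiotic recombination gene Mnd1 fell by 1.63 on the log2 scale and the polymerase Polq by 1.47. The end-resecting nuclease and helicase Dna2 decreased by 1.58, and the junction resolvase Gen1 by 1.44. Damage signalling and chromatin genes gave 9 lower of 22, led by Clspn (-1.23) and Timeless (-1.02), which couple the replication fork to CHEK1, and other mismatch repair genes gave 2 lower of 6, Msh3 (-0.79) and Pms1 (-0.65). End joining, the repair route that needs no sister chromatid, had 0 of 11 genes called by limma at more than 1.5-fold, and 6 of the 11 passed the adjusted p alone. Of these, Xrcc6 was lower (-0.58) and Xrcc5, Prkdc, Poll, Paxx and Polm were higher (0.27 to 0.46). The share of all genes that passed the adjusted p alone was not computed. At an unadjusted p under 0.05 in limma, 47.3% of all genes differed with DOM. The median difference with DOM was 0.24 for end joining, -0.20 for the further recombination genes and -0.43 for damage signalling, beside -0.55 for the members.

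Genes of cell division moved with the members. Of 19 S-phase replication genes, 15 were lower with DOM, Rrm2 (-1.83), Gins1 (-1.78) and Mcm5 (-1.71) by most, with a median of -1.06 over the list. All 17 G2 and mitosis genes tested were lower, with a median of -1.91, Aurkb (-3.08), Plk1 (-2.17) and Ccnb1 (-2.12) among them. On the 4 DOM arrays the median deviation from the DMSO mean was -1.57, -2.10, -1.61 and -2.48 for the G2 and mitosis genes and -0.94, -1.26, -0.95 and -1.20 for the S-phase genes. DOM replicate 4 was lowest for the members and for the G2 and mitosis genes. The part of cell division in the lower levels of the members was not tested. With DINCH, MEHP, BDB and DOS the group means of these per-array medians lay between -0.23 and 0.06 for S-phase genes and between -0.11 and 0.14 for G2 and mitosis genes.

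**Figure D5:**
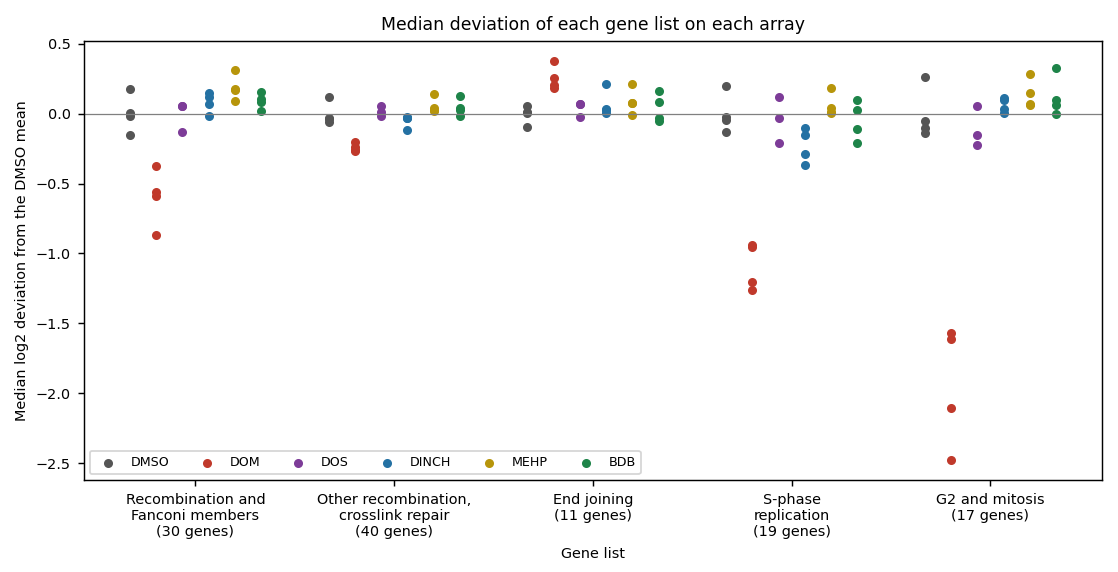
Median log2 deviation from the DMSO mean (vertical axis) over the genes of each list (horizontal axis) on each array (points, coloured by group). The DOM arrays lie below all others for the members (-0.87 to -0.38), the S-phase genes and the G2 and mitosis genes, and the end joining list has DOM arrays at 0.18 to 0.38.

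Markers of cell types also differed with DOM. Of 10 Sertoli cell markers tested, Inhbb (1.61) and Inha (1.05), subunits of inhibin, were higher and Sox9 (-0.92), a transcription factor of Sertoli cells, was lower. Of 3 peritubular myoid markers tested, Cnn1, a calponin of smooth muscle, was lower (-1.21). Over the 10 Sertoli cell markers tested the median log2 difference with DOM was -0.005, with 5 below 0. Summed levels add linear values, so the brightest markers weigh most. The log2 of the summed level of the 18 Sertoli cell markers was 5.46 to 6.13 on the DOM arrays and 3.92 to 4.86 on the DMSO arrays. For the other marker lists with a member above background the DOM and DMSO arrays overlapped, at 6.88 to 7.30 and 6.86 to 7.22 for the 5 peritubular myoid markers, 3.05 to 3.59 and 3.35 to 4.42 for the 6 Leydig cell markers, and 1.62 to 1.77 and 1.37 to 2.40 for the 4 macrophage markers. The part of these differences in the levels of the members was not tested.

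Genes that respond to damage through p53 and to electrophiles through NRF2 were also listed. Of 16 p53 targets tested with DOM, 3 were higher, Trp53inp1 (1.32), Sesn1 (0.84) and Xpc (0.60), and none were lower. These are 18.8% of the list. Of all genes, 20.5% were called in either direction, and 1189 of 12005 were called higher. Of the 9 glutathione and NRF2 genes, 6 were higher, Hmox1 (3.24), Gsta4 (2.77), Gstm1 (2.03), Nqo1 (1.86) and Srxn1 (0.97) by most. The share of these responses in the levels of the repair genes was not tested.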

How the data were processed

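The authors scanned the arrays and extracted spot intensities with Feature Extraction 11.5.1.1, and the deposited processed intensity was background-subtracted and detrended but not scaled between arrays. A second deposited file holds log2 values that the authors normalized to the 75th percentile and then baselined to the median of all samples. They matched the scanner values (lowest correlation for the same array 0.9996, highest for another array 0.41). Here processed intensities were floored at 1, put on the log2 scale and set relative to the 75th percentile of their array. Outlier spots were dropped and the spots of a probe averaged. Probes were named by RefSeq accession (26582 of 55681).

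Testing was limited to probes that, in all arrays of either group compared, were well above background and not under the 20th percentile. Each compound was fitted with DMSO alone in limma 3.58.1 (R 4.3.3, the data.table package 1.17.8), with p-values adjusted by the Benjamini-Hochberg method across all probes tested, and a gene was called when any probe was. Pairs of compounds were fitted the same way and adjusted over the 10 pairs. The cultures are biological replicates according to the methods. The steps were tested on simulated data. Promoters and figures were handled in Python 3.11.15 with pandas 2.3.3 and matplotlib 3.10.9.

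All members were named. Outside them, up to 5 called genes per list with the largest change with DOM were named, and the end joining genes and Rmi1 were named after their values were seen. Values on every array were given for the 12 members with the largest called change with DOM and for members called with another compound, and were added for Fancd2 and for the dimmer probe of Rad51d. Some genes that meet this rule are not reported here. The members and lists were chosen with earlier results of these data known. Replicate numbers are shared between groups. The deviations of same-numbered arrays correlated above 0.1 in every pair for DINCH (0.17 to 0.50), BDB (0.25 to 0.43) and DOS (0.20 to 0.45), and not for DOM (0.04 to 0.43) or MEHP (-0.14 to 0.45). The pairing is found from the values and not from the labels.

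Alternatives were quantile normalization, normexp background correction with an offset of 50, a variance trend, all 6 groups fitted together, blocks for the slide or for the replicate number, outlier spots kept, brightest probes only, detection on 1 array, dim probes kept, the values deposited by the authors and each array left out once. For pairs of compounds, p-values were also adjusted within each pair. Leaving out the 8 arrays with measures out of range, and the block for pairs of compounds, were chosen after seeing the data.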

Additional observations from a re-analysis of the deposited data

Results flagged for a closer look

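Among 165 sets of 4 arrays (33 members in 5 groups, DOS with 3 arrays left out), 9 held an array that stood apart from the other 3 by Dixon's criterion, and chance flags about 1 in 20 sets, which is 8.25 here. In DOM, Brca2 was at 0.48 on replicate 1 and at -0.08 to -0.01 on the others, Chek2 at -1.38 on replicate 4 and at -1.19 to -1.18 on the others, and Fancf at 1.17 on replicate 3 and at 1.46 to 1.51 on the others. In BDB, replicate 1 was highest for Fancb (1.16, others 0.84 to 0.89), Rad50 (1.74, others 1.55 to 1.57) and Xrcc2 (0.079, others -0.32 to -0.28). In MEHP, Fanca was at 3.31 on replicate 1 (others 3.02 to 3.04) and Msh6 at 4.43 on replicate 3 (others 4.15 to 4.18). In DINCH, Xrcc3 was at -0.97 on replicate 1 (others -1.23 to -1.21). Of these 9 pairs of gene and compound, Chek2 with DOM was the 1 called against DMSO. Its deviating array lay further from the DMSO arrays.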

How the results depend on the processing

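Of the members called against DMSO, Rad51d with DOM changed sign, from 0.59 on its dimmer probe to -0.18 when only brightest probes were used, and no other did under the alternatives run. With DOM, 12 of the 15 members called lower on their brightest probe kept their call in all 20 settings. The exceptions were Mre11a (lost in 9), Fancd2 (in 8) and Brip1 (in 1). Beside its reversal, the Rad51d call with DOM was lost in 7 settings. With DINCH, the Rad51d call was lost in 10 of 20, each DMSO array left out among them, the Rad51b call in 6 and the Fancm call in 3. The count of members called with DOM ran from 13 to 17, and from 13 to 16 when each array was left out. No replicate block changed a count against DMSO by over 1.5 times: with the replicate number as a block 16 members were called with DOM, the same 16 genes, and 3 with DINCH. Between compounds the block gave 2 for DINCH against DOS, 2 for MEHP against DOS and 1 for BDB against DOS. The count for DINCH against DMSO was 0 with normexp, 0 without the filter and 0 without the arrays whose extraction measures were out of range, where 3 genes were called in all, and 1 to 4 when each array was left out, lowest without DINCH replicate 1. The median with DINCH ran from 0.04 to 0.18 (0.044 at its lowest, without DINCH replicate 4), and with BDB from 0.066 without DMSO replicate 2 to 0.20 without DMSO replicate 1, and was 0.060 without the out-of-range arrays. Normexp gave 1 call for DINCH against MEHP, 1 for DINCH against BDB, 0 for DINCH against DOS and 1 for BDB against DOS. Without the filter there were 7 for DOM against DOS (525 of all 20145 genes) and 1 for DINCH against MEHP (159 of all 20145). The slide as a block gave 2 for DINCH against DOS and 2 for BDB against DOS, and quantile normalization 2 for MEHP against DOS. Of the end joining genes, 1 was called with DOM under normexp, 1 with the slide as a block, and 0 to 1 when each array was left out. Damage signalling calls were 5 without the filter and 5 without the out-of-range arrays. The other counts and medians stayed within 1.5 times or within the spread between arrays. The causes were not tested. Dim probes limit Brca1, Chek1 and Fancg, which were not above background on enough arrays.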
